A study of Rattus norvegicus with 6 samples.

Results

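The cytochrome P450 genes of the rat were described in renal cortex after 4 weeks of dosing with a phenolic antioxidant. Members were taken by gene symbol: every non-control probe whose transcript accession mapped to a rat gene named Cyp and a digit. The vitamin D genes Cyp24a1 and Cyp27b1, the sterol demethylase Cyp51, the epoxygenase Cyp2c23 and all Cyp4a genes, 14 probes of 8 genes in all, were left out by that rule. This gave 63 of the 15645 genes named on the array, and 102 of its 61537 probes; 26 of the 63 genes had more than 1 probe. The rule itself used no expression value, but it was set with earlier results of these data known.

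P450 enzymes are heme proteins that insert an oxygen atom into lipids, steroids, vitamins, drugs and pollutants. Those of the endoplasmic reticulum take electrons from P450 oxidoreductase (Por) and cytochrome b5, and those of the mitochondrion from ferredoxin. In the kidney the family is known mostly from the proximal tubule, where it oxidises arachidonic acid and vitamin D and turns over some drugs. Most drug-metabolising members are better known from the liver, and in the male rat several of them are expressed in a sex-dependent way.

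Male Sprague-Dawley rats of the Crl:CD(SD) stock, bought at 5 weeks of age, received either corn oil (vehicle, 3 rats) or TBBC, the 4,4' form of thiobis(6-tert-butyl-m-cresol), in a daily dose of 300 mg/kg (3 rats), both for 4 weeks. All rats had the same basal diet, and none carried a genetic change according to the labels. RNA of the renal cortex of each rat was hybridised to its own 1-colour array, and the design calls the 3 rats of a group biological replicates. All values below are log2 of a probe's signal over the 75th percentile of its array, so 0 stands for a signal at that percentile.

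The largest differences between the groups were seen in the Cyp2c and Cyp2d subfamilies, and the start regions of 2 pairs of these genes are shown because the members of each pair had their lowest values in the same TBBC rats. The sequences are RefSeq's for assembly GRCr8, 5′ to 3′ on the strand of the gene, and end 0 to 32 bases before the annotated start. Capitals mark the bases at which the 2 genes of a pair differ. Cyp2d1 lies at chr7:115793463-115793645 and Cyp2d5 at chr7:115784555-115784737, both on the minus strand; 172 of the 183 bases were the same. Cyp2c11 lies at chr1:246175135-246175213 and Cyp2c24 at chr1:246286262-246286340, both on the plus strand; 76 of 79 bases were the same.
Cyp2d1: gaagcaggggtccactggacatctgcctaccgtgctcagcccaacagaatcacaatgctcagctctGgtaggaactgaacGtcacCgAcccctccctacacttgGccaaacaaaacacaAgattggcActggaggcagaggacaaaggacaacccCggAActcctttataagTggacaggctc
Cyp2d5: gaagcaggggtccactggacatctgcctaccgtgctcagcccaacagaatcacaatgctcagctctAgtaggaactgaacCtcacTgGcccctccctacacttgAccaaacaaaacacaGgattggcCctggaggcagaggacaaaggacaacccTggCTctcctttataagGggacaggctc
Cyp2c11: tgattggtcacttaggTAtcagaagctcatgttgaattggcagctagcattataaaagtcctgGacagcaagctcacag
Cyp2c24: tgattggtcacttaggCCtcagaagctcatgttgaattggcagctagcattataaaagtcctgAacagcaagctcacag

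Likeness of this stretch and detection differed between Cyp2d genes. Cyp2d3 shares 226 of 246 bases with Cyp2d1, yet its single probe was well above background on only 2 vehicle arrays and no TBBC array. With Cyp2d2, whose probe was detected on all 6 arrays, the longest shared stretch was 23 bases. Of the 63 members, 50 had a RefSeq start region of 250 bases before to 50 after the start. The letters TATAAA, on either strand, were in 17 of these 50, among them both pairs shown, and in 14.2% of the 33469 start regions in the table. GCGTG, the core letters bound by the aryl hydrocarbon receptor, were in 14 of 50, Cyp1b1 among them, against 29.7% of all. TTCNNNGAA, the letters of STAT sites, were in 5 of 50 against 8.87%, and TGACNNNGC, the letters of antioxidant response elements, in 4 of 50 against 12.1%. Both strands were searched, the 4 motifs were counted separately, and a match is a run of letters and not a shown site.

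On the 6 arrays 67.1% to 70.9% of all probes were well above background, and the 75th percentile was 861.2 to 1038 signal units. TBBC 2 was the lowest array on both measures. The next lowest were TBBC 1 at 69.7% of probes and TBBC 3 at 940.8 signal units. Every marker list of a renal cortex cell type was detected in full, proximal tubule with 8 of 8 genes on all 6 arrays. Vehicle 1 to 3 and TBBC 1 shared a slide and TBBC 2 and 3 were on another, so slide and group were partly confounded. The difference within the shared slide, TBBC 1 against the 3 vehicle rats, is given below for some genes and not for all. Any p-value from that comparison takes the lone TBBC rat to vary like the vehicle rats. Over all 32956 transcripts tested the median log2 fold change was -0.02 and 53.5% lay below 0. The median standard deviation was 0.13 among vehicle rats and 0.23 among TBBC rats. Among tested P450 genes it was 0.21 and 0.36, and for 27 of the 38 the TBBC rats had the larger one.

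Vehicle 1 stood apart in some of the listed liver transcripts and not in others, which touches the liver-type P450 genes. Albumin (Alb) read 2.39, -3.46 and -0.13 in vehicle 1 to 3 and -3.61, -2.97 and -6.44 in TBBC 1 to 3. Transthyretin (Ttr), another plasma protein of the liver, read 1.63, -4.34 and -1.61 against -4.38, -3.89 and -8.14. Both were highest in vehicle 1 and next highest in vehicle 3. In contrast, F2 read 1.29, 2.21 and 2.30 in vehicle 1 to 3 and Apoc3 read 2.96, 2.98 and 2.96. All 10 liver genes listed were detected on at least 1 array, 7 on all 6, and their summed level was 15.7 to 24.5 times the 75th percentile in vehicle rats and 25.8 to 230 times in TBBC rats, the latter from the fibrinogen genes. None of the 10 passed the test.

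Of the 102 P450 probes, 45 were well above background on all 6 arrays, 36 on 1 to 5 and 21 on none. By array, 71, 59 and 63 were detected in vehicle 1 to 3 and 57, 54 and 58 in TBBC 1 to 3. Every vehicle array thus showed more P450 probes than any TBBC array. Of all probes, 70.7%, 70% and 70% were detected in vehicle 1 to 3 and 69.7%, 67.1% and 70.9% in TBBC 1 to 3. By gene, 29 of 63 had a probe detected on all 6 arrays, 50 on at least 1 and 13 on none. A gene was tested if a probe was detected on every array of at least 1 group, which held for 38 genes and 56 probes. The fatty acid group of Cyp4 genes was detected in full, with 10 of 10 genes tested, whereas 14 of 25 xenobiotic Cyp2 genes and 1 of 5 Cyp3a genes were tested.

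**Figure D1:**
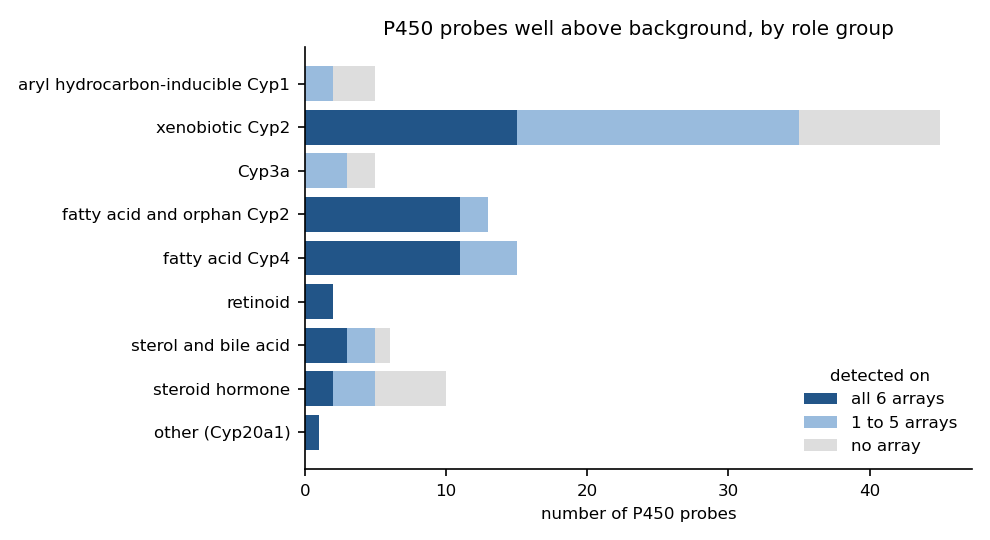
Number of P450 probes (horizontal axis) in each role group that were well above background on all 6 arrays, on 1 to 5 arrays or on no array. The xenobiotic Cyp2 group holds 45 probes, 15 of them on all 6 arrays and 10 on none, and of the 5 Cyp3a and 5 Cyp1 probes 0 were on all 6.

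None of the 38 tested P450 genes passed the adjusted threshold of 0.05 in limma, where 0.531% of all transcripts did. The lowest adjusted p was 0.0984, that of Cyp3a9. At an unadjusted p under 0.05 there were 11 genes, 7 lower (10.4% of all transcripts were) and 4 higher (9.55%) in TBBC rats. Together they were 28.9% of those tested, beside 20.0% of all transcripts. The groups did not overlap for 10 genes, 26.3%, beside 28.3% of all transcripts. Of these, 7 were lower in every TBBC rat (18.4%, beside 15.2% of all transcripts) and 3 were higher in every TBBC rat (7.89%, beside 13.1%). Of the 38 genes, 29 were detected on all 6 arrays. Another 6 (Cyp2a1, Cyp2a2, Cyp2b15, Cyp4f18, Cyp11a1 and Cyp11b3) passed the filter on dim probes only through the vehicle group and 3 (Cyp3a9, Cyp4f4 and Cyp4x1) only through the TBBC group, so their direction supports nothing. The shares of genes without overlap are near the background of the array.

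At least 2-fold lower were 5 genes, Cyp2c11, Cyp2c24, Cyp2d1, Cyp2d5 and Cyp2b3, all detected on all 6 arrays. They were 13.2% of the tested genes, beside 2.18% of all transcripts. Cyp2d1 and Cyp2d5 are not independent measurements, and Cyp2b3 was -0.67 without vehicle 1. Within the shared slide the 5 differences were -1.62, -0.30, -0.53, -0.51 and -1.02. At least 2-fold higher were 2 genes (5.26%), Cyp3a9 and Cyp4f4, which passed the filter only through the TBBC group. The like share of all transcripts was not counted. The median log2 fold change of the 38 genes was -0.32, and 24 genes lay below 0 (63.2%, beside 53.5% of all transcripts). The median deviation from the vehicle mean was -0.08, -0.46 and -0.11 in TBBC 1 to 3, and leaving out TBBC 2 gave a median over the genes of -0.02. Within the shared slide it was -0.07. Of the 12 genes with more than 1 tested probe, 9 had all probes of 1 sign; the exceptions were Cyp2b2, Cyp2s1 and Cyp4f17.

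**Figure D2:**
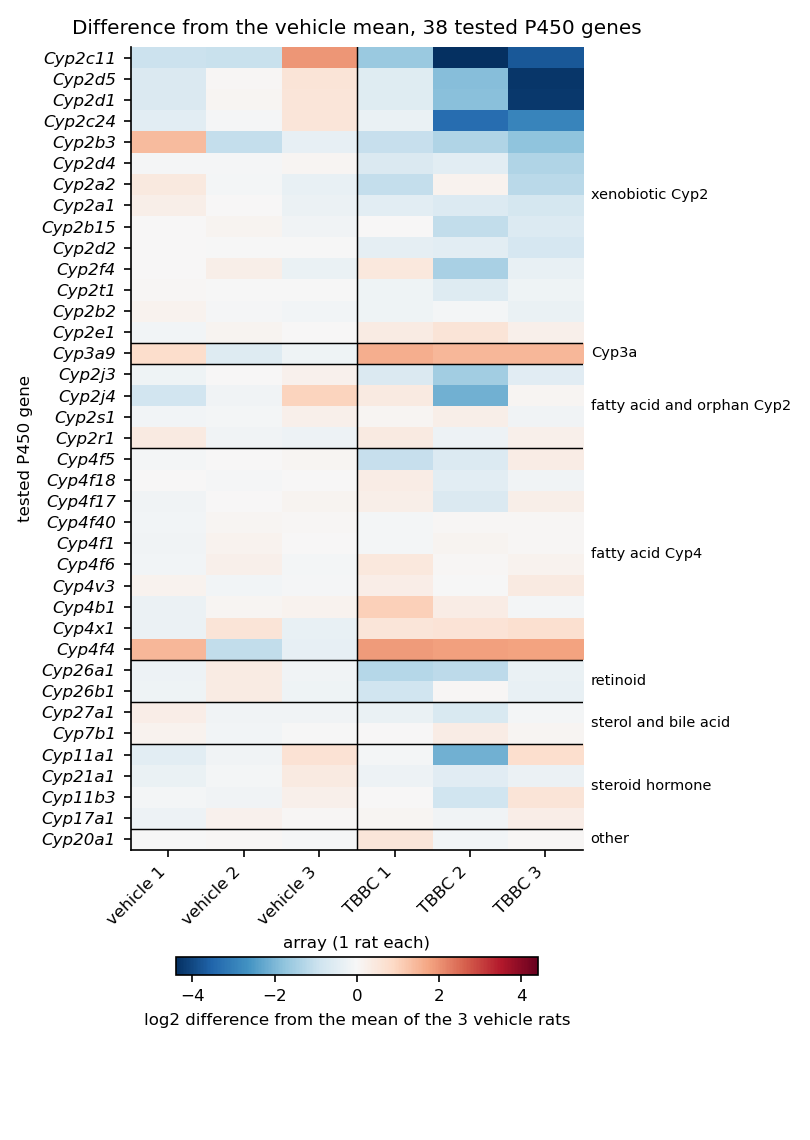
Log2 difference of each rat from the mean of the 3 vehicle rats (colour) for the 38 tested P450 genes (rows), ordered by role group and by log2 fold change; columns are the 6 arrays. The darkest cells are Cyp2c11 and Cyp2c24 in TBBC 2 and 3 and Cyp2d1 and Cyp2d5 in TBBC 3, while TBBC 1 lies within 0.53 of the vehicle mean for the last 3 of these genes.

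The xenobiotic Cyp2 genes had the lowest median of the groups with more than 2 tested genes, -0.66 over 14 genes. Of the 14, 13 lay below 0, beside 53.5% of all transcripts. Among the 13, Cyp2a1, Cyp2a2 and Cyp2b15 passed the filter on dim probes only through the vehicle group, so their direction supports nothing. Cyp2d1 and Cyp2d5, also among them, are not independent measurements. The median deviations were -0.44, -0.84 and -0.97 in TBBC 1 to 3. The groups did not overlap for 5 genes lower in TBBC rats, Cyp2a1 among them (15.2% of all transcripts were), and for 1 higher, Cyp2e1 (13.1% were). None of the 14 passed the adjusted test. In bulk cortex, fewer cells of a type and less RNA per cell cannot be told apart.

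Cyp2c11, the main Cyp2c enzyme of male rat liver and a testosterone hydroxylase, read -1.51, -1.54 and 1.37 in vehicle 1 to 3 and -2.18, -4.96 and -4.29 in TBBC 1 to 3. Every TBBC rat lay below every vehicle rat, vehicle 3 stood above the other 2, and TBBC 1 was within 0.64 of the nearest vehicle rat. The log2 fold change was -3.25 ± 1.02 (SE, n = 3 and 3), 9.50-fold lower, with an adjusted p of 0.165 from limma. Within the shared slide the difference was -1.62, and with normexp background correction it was -2.20. Leaving out vehicle 1, the rat with the highest Alb and Ttr, gave -3.72. It was -2.28 without vehicle 3 and -4.06 without TBBC 1. The sign was the same in all 5, and none passed the threshold.

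Cyp2c24, which sits in the same gene cluster, read 0.85, 1.27 and 1.86 in vehicle rats and 1.03, -2.03 and -1.59 in TBBC rats. TBBC 1 lay among the vehicle rats and TBBC 2 and 3 lay far below them, so the groups overlapped. A second probe gave the same order, with -1.61, -0.97 and -0.67 against -1.48, -4.52 and -4.19. The log2 fold change was -2.19 ± 0.80 (SE, n = 3 and 3), 4.55-fold lower, with an adjusted p of 0.206 from limma. Without TBBC 1 it was -3.13 with an adjusted p of 0.0427, the single P450 call under any alternative, and within the shared slide it was -0.30. Without TBBC 2 it was -1.60. TBBC 2 and 3 are also the rats of the other slide, so slide and rat cannot be told apart for this split.

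The remaining Cyp2c genes were detected in vehicle rats alone or not at all. Cyp2c7, a liver retinoid and drug hydroxylase, had 6 probes, all highest in vehicle 1, where they ran from -5.69 to -2.22. In vehicle 3 they ran from -7.90 to -5.02 and in vehicle 2 from -8.20 to -6.51, and vehicle 3 came second for 5 of the 6. On the TBBC arrays they ran from -8.31 to -6.24 and none was well above background. Cyp2c13, a male-specific liver form, was detected on vehicle 1 alone, at -3.07 against -7.97 and -6.09 in the other vehicle rats and -7.92, -7.62 and -7.91 in TBBC rats. Cyp2c6v1 had 2 probes at -3.52 and -3.41 in vehicle 1 and no detection elsewhere. Cyp2c12, the female-specific liver form, and Cyp2c22 were on no array. The order of vehicle 1, vehicle 3 and vehicle 2 is that of Alb and Ttr, though not of every liver gene listed. The part of liver RNA in these values was not tested.

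**Figure D3:**
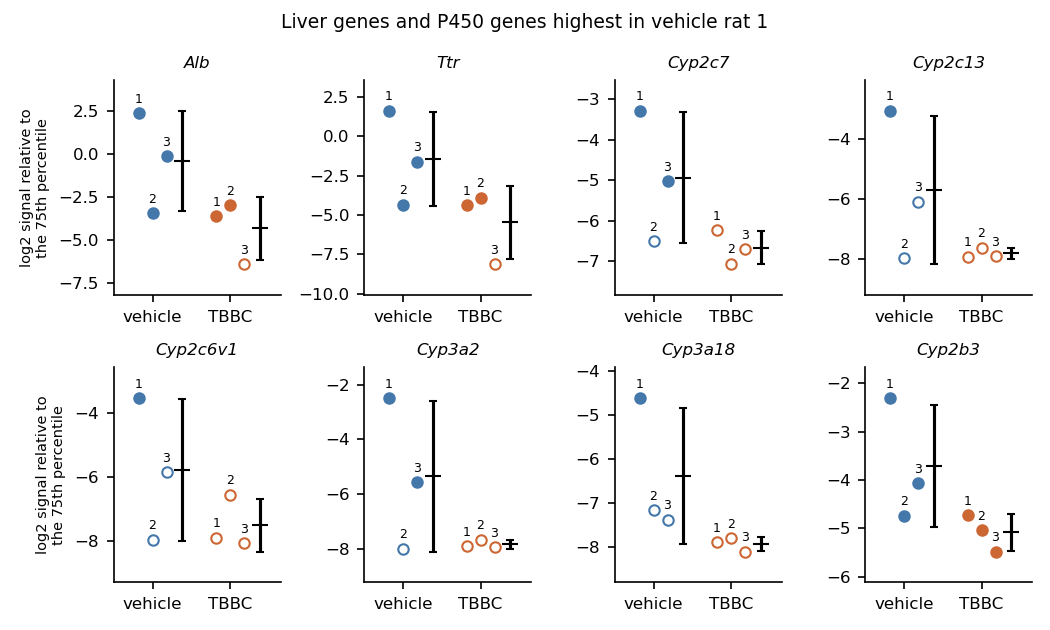
Log2 signal relative to the array's 75th percentile for Alb, Ttr and 6 P450 genes in each rat (numbered points; open points are not well above background; the bar is the group mean with its SD, n = 3). For genes with several probes the probe with the highest mean is plotted. In all 8 panels vehicle 1 is the highest rat, and the genes were picked for this. For Cyp2c13, Cyp2c6v1 and Cyp3a18 it is the only rat detected.

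The Cyp2d genes, relatives of the debrisoquine hydroxylase, were all lower in TBBC rats on average, with a median log2 fold change of -1.50 over 4 genes. Cyp2d1, the rat debrisoquine hydroxylase, read 4.52, 5.24 and 5.70 in vehicle 1 to 3 and 4.62, 3.31 and 0.90 in TBBC 1 to 3. Cyp2d5 read 4.73, 5.42 and 5.95 against 4.85, 3.50 and 1.07, and its second probe 2.88, 3.46 and 4.23 against 3.14, 1.49 and -0.99. In all 3 probes TBBC 3 was lowest, TBBC 2 was below every vehicle rat and TBBC 1 was just above vehicle 1, so the groups overlapped.

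The log2 fold change was -2.21 ± 0.92 for Cyp2d1, 4.62-fold lower, with an adjusted p of 0.252 from limma (SE, n = 3 and 3). For Cyp2d5 it was -2.22 ± 0.93, 4.67-fold lower, with an adjusted p of 0.256. Within the shared slide the differences were -0.53 and -0.51. Without TBBC 3 the value was -1.19 for each, and without TBBC 1 it was -3.05 and -3.08. The transcripts of these 2 genes are near-identical, and signal may be shared between their probes, so they are not 2 independent measurements.

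Cyp2d2 and Cyp2d4 had smaller differences and groups that did not overlap. Cyp2d2, which also oxidises drugs of the debrisoquine type, read 3.12, 3.09 and 3.08 in vehicle rats and 2.70, 2.64 and 2.37 in TBBC rats. Its vehicle rats lay within 0.04 of each other and every TBBC rat was below them. The log2 fold change was -0.53 ± 0.12, 1.44-fold lower, with an adjusted p of 0.103, and -0.40 within the shared slide. Cyp2d4, known from rat brain, read 1.61, 1.61 and 1.75 against 1.03, 1.20 and 0.35. All TBBC rats were below all vehicle rats, TBBC 3 the lowest, with a log2 fold change of -0.80 ± 0.23, an adjusted p of 0.144, and -0.63 within the shared slide. Cyp2d3 was detected on 2 vehicle arrays only and was not tested; it read -5.41, -5.85 and -5.37 against -6.10, -5.53 and -5.84.

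Of the 5 listed markers of the proximal S3 segment, 3 had a like array pattern and 2 did not. Slc7a13, an aspartate and glutamate transporter of that segment, read 4.50, 5.17 and 6.84 in vehicle rats and 5.12, 0.65 and -0.06 in TBBC rats. Slc22a7, an organic anion transporter, read -3.15, -1.90 and -0.49 against -1.77, -5.88 and -5.59. Agt, angiotensinogen, read 1.04, 1.32 and 3.01 against 3.15, -1.67 and -2.55. For these genes TBBC 2 and 3 lay below every vehicle rat and TBBC 1 did not, as for Cyp2c24. The same 2 rats were on the slide without vehicle rats, so slide and rat cannot be told apart here. In contrast, Slc5a1, a glucose transporter, read -1.70, -1.58 and -1.75 against -1.86, -1.38 and -1.76, and Slc3a1, an amino acid transporter subunit, read 7.98, 7.94 and 8.18 against 7.54, 7.25 and 7.18, lower in all TBBC rats. The summed level of the 5 listed S3 genes was 277 to 414 times the 75th percentile in vehicle rats and 147 to 231 times in TBBC rats. On every array most of this sum came from Slc3a1, so it says little about the other genes. Of the 5 genes, 0 passed the test. The part of the S3 genes in the Cyp2c and Cyp2d differences was not tested.

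**Figure D4:**
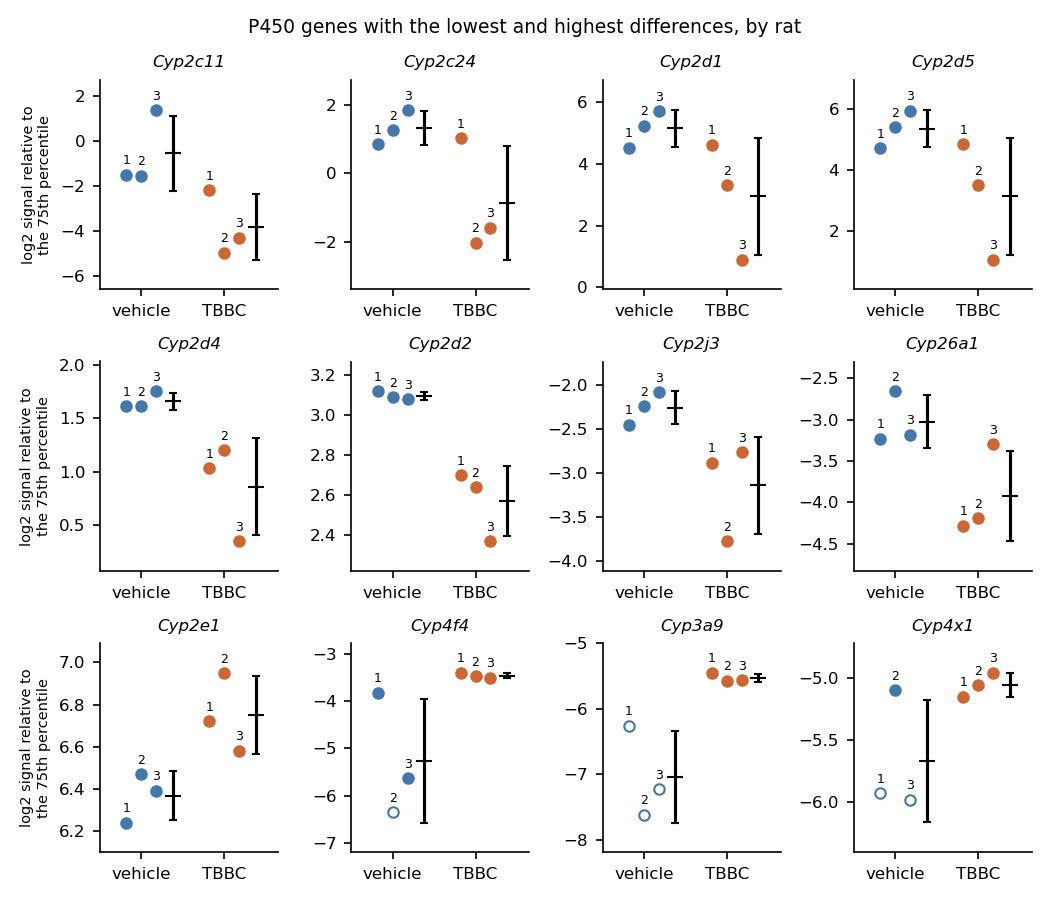
Log2 signal relative to the array's 75th percentile for 12 P450 genes in each rat (numbered points; open points are not well above background; the bar is the group mean with its SD, n = 3). Each panel has its own vertical scale, and levels are not comparable between panels. TBBC 1 lies among the vehicle rats for Cyp2c24, Cyp2d1 and Cyp2d5, and all 3 vehicle points are open for Cyp3a9.

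Cyp2b enzymes are the phenobarbital-inducible forms of rat liver. Cyp2b1, the main inducible form, was on no array, with values of -7.50, -8.01 and -7.95 in vehicle rats and -7.90, -6.46 and -8.00 in TBBC rats. Cyp2b2, its close relative, read -1.99, -2.21 and -2.28 against -2.35, -2.24 and -2.45. The groups overlapped and the log2 fold change was -0.18 ± 0.12, with an adjusted p of 0.458; 2 of its 3 tested probes had this sign.

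Cyp2b3, a liver form that phenobarbital does not induce, read -2.30, -4.74 and -4.06 in vehicle rats and -4.72, -5.03 and -5.48 in TBBC rats. Vehicle 1 stood far above all other rats, and vehicle 2 was level with TBBC 1. On average the log2 fold change was -1.38 ± 0.62, 2.60-fold lower, with an adjusted p of 0.283, and without vehicle 1 it was -0.67, 1.60-fold lower. With normexp it was -0.65. Cyp2b15 read -4.51, -4.39 and -4.68 against -4.52, -5.60 and -5.14, with TBBC 1 level with the vehicle rats, a log2 fold change of -0.56 ± 0.27 and 0.00 within the shared slide. Cyp2b12 was detected on some arrays of both groups and Cyp2b21 on vehicle 1 alone, and neither was tested.

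The liver testosterone hydroxylases Cyp2a1 and Cyp2a2 lay close to background. Cyp2a1 read -4.54, -4.78 and -5.04 in vehicle 1 to 3 and -5.26, -5.40 and -5.55 in TBBC 1 to 3, where it was detected on 2 of 3 arrays. All TBBC rats were below all vehicle rats, with a log2 fold change of -0.62 ± 0.16 and an adjusted p of 0.123. Cyp2a2 read -4.87, -5.38 and -5.62 against -6.35, -5.14 and -6.46, detected on 1 of 3 TBBC arrays. Its groups overlapped through TBBC 2, and the log2 fold change was -0.69 ± 0.39 with an adjusted p of 0.378, or -0.09 with normexp. Cyp2a3, an airway form, was on no array.

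Cyp2e1, which oxidises ethanol and other small molecules, was the one xenobiotic Cyp2 gene above 0. It read 6.24, 6.47 and 6.39 in vehicle rats and 6.72, 6.95 and 6.58 in TBBC rats. Every TBBC rat was above every vehicle rat, TBBC 3 by the least. Its log2 fold change was 0.38 ± 0.14, 1.31-fold higher, with an adjusted p of 0.197 from limma, and it was 0.36 within the shared slide.

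Cyp2t1, whose substrates are little known, read 1.76, 1.71 and 1.70 in vehicle rats and 1.52, 1.17 and 1.55 in TBBC rats. The groups did not overlap, and the log2 fold change was -0.31 ± 0.13 with an adjusted p of 0.266. Cyp2f4, the naphthalene-oxidising form of lung, read -0.20, 0.06 and -0.50 against 0.24, -1.63 and -0.53. Its TBBC rats lay on both sides of the vehicle rats, the log2 fold change was -0.43 ± 0.46, and it was 0.45 within the shared slide. Cyp2g1, the olfactory form, was on no array.

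Among Cyp3a genes, the steroid and drug hydroxylases of liver and gut, only Cyp3a9 was tested. It read -6.26, -7.62 and -7.23 in vehicle rats, not well above background on any of the 3, and -5.45, -5.57 and -5.56 in TBBC rats, well above background on all 3. The TBBC rats lay within 0.12 of each other and above every vehicle rat. Since the vehicle group has only a bound, the TBBC rats were 1.34-fold higher than that bound. The bound is approximate, as a Cyp2b2 probe at -5.52 in vehicle 3 was not well above background. That bound sets the TBBC mean of -5.53 against a vehicle bound of -5.94, the mean over arrays of the higher of the lowest detected signal and the probe's own; the measured vehicle mean was -7.03. The log2 fold change of the measured values was 1.51, with an adjusted p of 0.0984 from limma. With normexp it was 0.35, and within the shared slide 1.59. The gene entered the test only through the TBBC arrays, where it is high.

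The other Cyp3a genes were untested. Cyp3a2, the male liver form, read -2.49, -7.97 and -5.55 in vehicle rats, detected in vehicle 1 and 3, and -7.89, -7.65 and -7.92 in TBBC rats. Cyp3a18 was detected in vehicle 1 alone, at -4.62, against -7.17 and -7.38 in the other vehicle rats and -8.11 to -7.81 in TBBC rats. Vehicle 1 was again the highest rat for both. Cyp3a23-3a1 and Cyp3a62 were on no array. Of the 12 untested genes with some detection, 10 were detected on vehicle arrays only, and 7 of these on vehicle 1, 4 of them on vehicle 1 alone. The share of all genes with such patterns was not counted, so these counts have no background to be read against.

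The Cyp1 genes are the classical targets of the aryl hydrocarbon receptor, and none of the 3 could be tested. Cyp1a1, the prime target, read -7.99, -7.92 and -7.87 in vehicle rats and -7.83, -7.60 and -7.86 in TBBC rats and was on no array. Cyp1a2, its liver relative, was on no array with either of its 2 probes. Cyp1b1, the extrahepatic form, read -7.07, -7.09 and -8.10 against -6.61, -6.19 and -4.35 with one probe, and -7.57, -5.99 and -7.79 against -7.72, -5.56 and -3.61 with the other. It was not well above background on any vehicle array, and was so in TBBC 3 with both probes and in TBBC 2 with the second. TBBC 3 was the highest rat with both. The listed leukocyte genes summed to 228 times the 75th percentile in TBBC 3, 103 and 115 times in TBBC 1 and 2 and 142 to 155 times in vehicle rats. Fibroblast genes were also highest in TBBC 3, summing to 32.1 times, against 20.6 and 14.3 times in TBBC 1 and 2 and 18.7 to 23.2 times in vehicle rats. The part of either list in the Cyp1b1 values was not tested.

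TBBC 2 was the lowest rat for both tested Cyp2j genes, epoxygenases that turn arachidonic acid into epoxides. Cyp2j3 read -2.45, -2.24 and -2.08 in vehicle rats and -2.88, -3.77 and -2.76 in TBBC rats. All TBBC rats were below all vehicle rats, TBBC 2 by the most, and all 4 tested probes had this sign. Its log2 fold change was -0.88 ± 0.28, 1.84-fold lower, with an adjusted p of 0.172, and it was -0.62 within the shared slide. With normexp it was -0.16.

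Cyp2j4, known from rat intestine and kidney, read -0.70, 0.00 and 1.14 in vehicle rats and 0.55, -1.96 and 0.22 in TBBC rats. Only TBBC 2 lay outside the vehicle range. Its log2 fold change was -0.54 ± 0.77 with an adjusted p of 0.740, its 3 probes had 1 sign, and without TBBC 2 it was 0.39. Cyp2j10 was detected on 1 vehicle array and was not tested.

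Cyp2s1, an epithelial form, read -0.05, -0.01 and 0.30 in vehicle rats and 0.17, 0.35 and -0.06 in TBBC rats, with a log2 fold change of 0.07 ± 0.16. Cyp2r1, which starts the activation of vitamin D, read -0.89, -1.45 and -1.53 against -0.88, -1.52 and -1.05, with a log2 fold change of 0.14 ± 0.24. Both overlapped fully between the groups, with adjusted p-values of 0.834 and 0.787. No probe was mapped to Cyp2u1, which is not analysed here.

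The Cyp4 genes outside the Cyp4a subfamily hydroxylate the far end of fatty acids, leukotrienes and related lipids. Their median log2 fold change was 0.12 over 10 genes, and none passed the adjusted test. Above 0 were 7 genes, of which Cyp4f4 and Cyp4x1 passed the filter on dim probes only through the TBBC group. Cyp4f18, below 0, passed it only through the vehicle group. The direction of these genes supports nothing. Their median deviations were 0.30, 0.06 and 0.21 in TBBC 1 to 3.

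Cyp4f4 had the highest difference of the family. It read -3.82, -6.35 and -5.63 in vehicle rats, detected on 2 of the 3 arrays, and -3.40, -3.47 and -3.50 in TBBC rats. The TBBC rats lay within 0.10 of each other and above every vehicle rat, but vehicle 1 was within 0.32 of the nearest TBBC rat. On average the log2 fold change was 1.81 ± 0.61, 3.50-fold higher, with an adjusted p of 0.183 from limma. Without vehicle 1 it was 2.53, 5.79-fold higher, and within the shared slide 1.87. Smaller values were 1.27 without vehicle 2 and 0.70 with normexp.

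The other Cyp4f genes lay nearer to 0, and the median over all 7 was 0.01. Cyp4f1, a leukotriene hydroxylase, read 6.10, 6.41 and 6.29 in vehicle rats and 6.17, 6.38 and 6.31 in TBBC rats, with a log2 fold change of 0.02 ± 0.12. Cyp4f6 read 3.42, 3.76 and 3.44 against 3.99, 3.59 and 3.68, with a log2 fold change of 0.21 ± 0.16. Cyp4f5 read -0.60, -0.52 and -0.44 against -1.55, -1.11 and -0.20, so TBBC 1 and 2 were low and TBBC 3 was high, with a log2 fold change of -0.43 ± 0.33 and -1.03 within the shared slide. Groups overlapped for all 3, and for Cyp4f17, Cyp4f18 and Cyp4f40, whose log2 fold changes were -0.04, -0.09 and 0.01. The sign of Cyp4f1 flips under quantile scaling, to -0.05.

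Cyp4x1, a brain form whose substrates are little known, read -5.93, -5.10 and -5.98 in vehicle rats, detected on 1 array, and -5.15, -5.06 and -4.96 in TBBC rats, detected on 3. Vehicle 2 overlapped with TBBC 1, and the log2 fold change was 0.62 ± 0.25 with an adjusted p of 0.243. A second probe, not tested, was detected in TBBC 1 alone, at -4.53, against -7.63 and -7.94 in the other TBBC rats. The 2 probes therefore did not show the same order of rats.

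Cyp4b1, a lung enzyme that also oxidises furans, read -1.44, -1.08 and -1.02 in vehicle rats and -0.14, -0.87 and -1.26 in TBBC rats. TBBC 1 stood above the rest and TBBC 3 lay among the vehicle rats, with a log2 fold change of 0.42 ± 0.29 and 1.03 within the shared slide. Cyp4v3, a fatty acid hydroxylase, read -2.06, -2.32 and -2.26 against -1.93, -2.22 and -1.81. It overlapped between the groups, with a log2 fold change of 0.23 ± 0.15 and an adjusted p of 0.440.

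Both Cyp26 enzymes, which break down retinoic acid, lay below 0. Cyp26a1 read -3.23, -2.66 and -3.18 in vehicle rats and -4.28, -4.19 and -3.30 in TBBC rats. All TBBC rats were below all vehicle rats, TBBC 3 only by 0.07. Its log2 fold change was -0.90 ± 0.30, 1.86-fold lower, with an adjusted p of 0.184, and it was -1.25 within the shared slide. Cyp26b1 read 0.62, 1.16 and 0.61 against -0.07, 0.85 and 0.47, with overlap through TBBC 2 and a log2 fold change of -0.38 ± 0.27.

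Of the 5 sterol and bile acid genes, 2 were tested. Cyp27a1, the mitochondrial sterol hydroxylase, read -0.81, -1.28 and -1.26 in vehicle rats and -1.41, -1.78 and -1.20 in TBBC rats, with a log2 fold change of -0.34 ± 0.20. Cyp7b1, the oxysterol hydroxylase, read -0.51, -0.78 and -0.67 against -0.64, -0.32 and -0.58, with a log2 fold change of 0.14 ± 0.13. Both overlapped. Cyp7a1, the rate-limiting enzyme of bile acid synthesis in liver, was on no array. Cyp8b1, which acts later in that pathway, and Cyp39a1 were each detected on 1 vehicle array.

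Steroid hormone P450 genes were at or near background for the most part, with 4 of 7 tested and a median log2 fold change of -0.21. Cyp11a1, which cleaves the side chain of cholesterol, read -5.26, -4.93 and -4.15 in vehicle rats and -4.85, -6.90 and -4.03 in TBBC rats, and only TBBC 2 stood apart. Its log2 fold change was -0.48 ± 0.74, and it was 0.34 without TBBC 2 and -1.10 without TBBC 3. Cyp11b3, a relative of the corticosteroid hydroxylases, read -5.31, -5.37 and -5.0 against -5.20, -6.10 and -4.67, with a log2 fold change of -0.10 ± 0.36. TBBC 2 was the lowest rat for both.

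Cyp17a1, the hydroxylase and lyase of androgen synthesis, read -2.66, -2.26 and -2.40 in vehicle rats and -2.34, -2.58 and -2.16 in TBBC rats, with a log2 fold change of 0.08 ± 0.16. Cyp21a1, a hydroxylase of corticosteroid synthesis, read -1.96, -1.76 and -1.29 against -1.90, -2.18 and -1.92, with a log2 fold change of -0.33 ± 0.20; its other probe was on no array. The groups overlapped for both. Cyp11b1 and Cyp11b2, the terminal adrenal enzymes, and Cyp19a1, the aromatase, were on no array. The adrenal cortex receptor Mc2r and the factor Nr5a1 were on no array either, and Star, the steroidogenic cholesterol carrier, on 1, and Akr1b7 on 2. Mrap, Hsd3b1, Hsd3b2 and Fdx1, 4 of the 8 listed adrenal genes, were detected on all 6 arrays. Mrap, which escorts the Mc2r receptor, read 2.20, 2.55 and 3.01 in vehicle rats and 1.76, 1.11 and -0.01 in TBBC rats, lower in every TBBC rat, with an adjusted p of 0.142. The 8 genes summed to 34.5 to 37.7 times the 75th percentile in vehicle rats and 29.6 to 32.4 times in TBBC rats. Without Fdx1 the other 7 summed to 5.13 to 9.15 times and 1.36 to 4.27 times. Most of this sum was Mrap on every array, so it is not a fall of 7 genes. Hsd3b1 and Hsd3b2 overlapped between the groups, with log2 fold changes of 0.14 and -0.06. The part of the listed adrenal genes in the steroid P450 values was not tested.

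Cyp20a1, an orphan member, read 0.82, 0.90 and 0.79 in vehicle rats and 1.38, 0.73 and 0.90 in TBBC rats. TBBC 1 was the highest and TBBC 2 the lowest rat. Its log2 fold change was 0.16 ± 0.18, with an adjusted p of 0.665.

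Genes linked to P450s were compared through 5 lists: electron donors, heme enzymes, regulators, epoxide hydrolases and an aryl hydrocarbon receptor battery outside the P450s. Of their 50 genes, 48 were on the array and 47 tested. Nqo1, a quinone reductase of the last list, passed the threshold as higher in TBBC rats, and none passed as lower. In limma 15 of the 47 had an unadjusted p under 0.05, a larger share than the 20.0% of all transcripts. The groups did not overlap for 18 of the 47, 9 higher and 9 lower, beside 28.3% of all transcripts. Nqo1 read -3.03, -3.17 and -2.41 in vehicle rats and 2.26, 1.59 and 1.11 in TBBC rats. The groups lay far apart, with a log2 fold change of 4.53 ± 0.34, 23.0-fold higher, and an adjusted p of 0.0140. It was called in 18 of 22 alternatives and not with a replicate block or without any one of vehicle 1, 2 or 3, when only 6 to 14 of all transcripts were called. The other genes of the aryl hydrocarbon receptor list had log2 fold changes of 0.01 (Aldh3a1), 0.55 (Ugt1a6) and 0.37 (Gsta2). Ahr itself, the receptor, read -4.29, -3.84 and -3.90 against -4.10, -4.19 and -4.06, with a log2 fold change of -0.11 ± 0.15.

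Electron donors had log2 fold changes between -0.34 and 0.42. Por read 2.88, 2.83 and 3.07 in vehicle rats and 2.83, 3.47 and 2.55 in TBBC rats, with a log2 fold change of 0.02 ± 0.24. Cyb5a, cytochrome b5, read 4.80, 4.84 and 4.79 against 5.07, 5.49 and 4.89. Every TBBC rat was above every vehicle rat for Cyb5a, with a log2 fold change of 0.34 ± 0.17 and an adjusted p of 0.319. Of the 10 donors, 0 passed the threshold in limma and 4 had an unadjusted p under 0.05, beside 20.0% of all transcripts.

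The genes of heme synthesis and breakdown differed in both directions. Alas1, the rate-limiting enzyme of heme synthesis, read 4.98, 5.08 and 5.0 in vehicle rats and 6.05, 5.78 and 5.28 in TBBC rats. Hmox1, the stress-inducible heme oxygenase, read -1.42, -1.16 and -1.40 against 0.66, 2.95 and -0.60. Neither gene overlapped between the groups, and TBBC 3 was the TBBC rat nearest to vehicle for both. The log2 fold changes were 0.68 ± 0.20 and 2.33 ± 0.84, with adjusted p-values of 0.152 and 0.200. Blvrb, a biliverdin reductase, was also higher in every TBBC rat, with a log2 fold change of 0.72 ± 0.15 and an adjusted p of 0.0893. Lower in every TBBC rat were Alad, an early enzyme of heme synthesis, at -0.40 ± 0.11, and Hmox2, the constitutive heme oxygenase, at -0.27 ± 0.11, with adjusted p-values of 0.132 and 0.259. In limma 0 of the 12 genes passed, and 4 had an unadjusted p under 0.05, beside 20.0% of all transcripts.

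Epoxide hydrolases act on the epoxides that P450s make. Ephx1, the microsomal form, read 3.23, 3.12 and 3.24 in vehicle rats and 6.29, 5.08 and 5.21 in TBBC rats. All TBBC rats were above all vehicle rats, with a log2 fold change of 2.33 ± 0.32, 5.03-fold higher, and an adjusted p of 0.0508 from limma, just over the threshold; 12 of the 22 alternatives called it. Ephx2, the soluble form, read 1.22, 1.57 and 1.82 against 2.21, -2.47 and 1.36. Only TBBC 2 lay far from the rest, with a log2 fold change of -1.17 ± 1.16 and an adjusted p of 0.621.

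Of the 18 tested regulators, 13 lay below 0, a larger share than the 53.5% of all transcripts, and 0 passed the threshold. Hnf4a, which drives many P450 genes in liver and proximal tubule, read 3.78, 3.70 and 3.96 in vehicle rats and 3.25, 3.31 and 3.17 in TBBC rats. Its groups did not overlap, with a log2 fold change of -0.57 ± 0.11 and an adjusted p of 0.0845. The xenobiotic receptor Nr1i2 read 2.61, 2.64 and 2.61 against 2.47, 2.15 and 2.64, and Nr1i3 read -4.77, -4.84 and -4.35 against -3.70, -4.57 and -4.41. Both overlapped, with log2 fold changes of -0.20 ± 0.15 and 0.43 ± 0.26. The summed level of the regulators was 104 to 111 times the 75th percentile in vehicle rats and 87 to 90.6 times in TBBC rats.

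**Figure D5:**
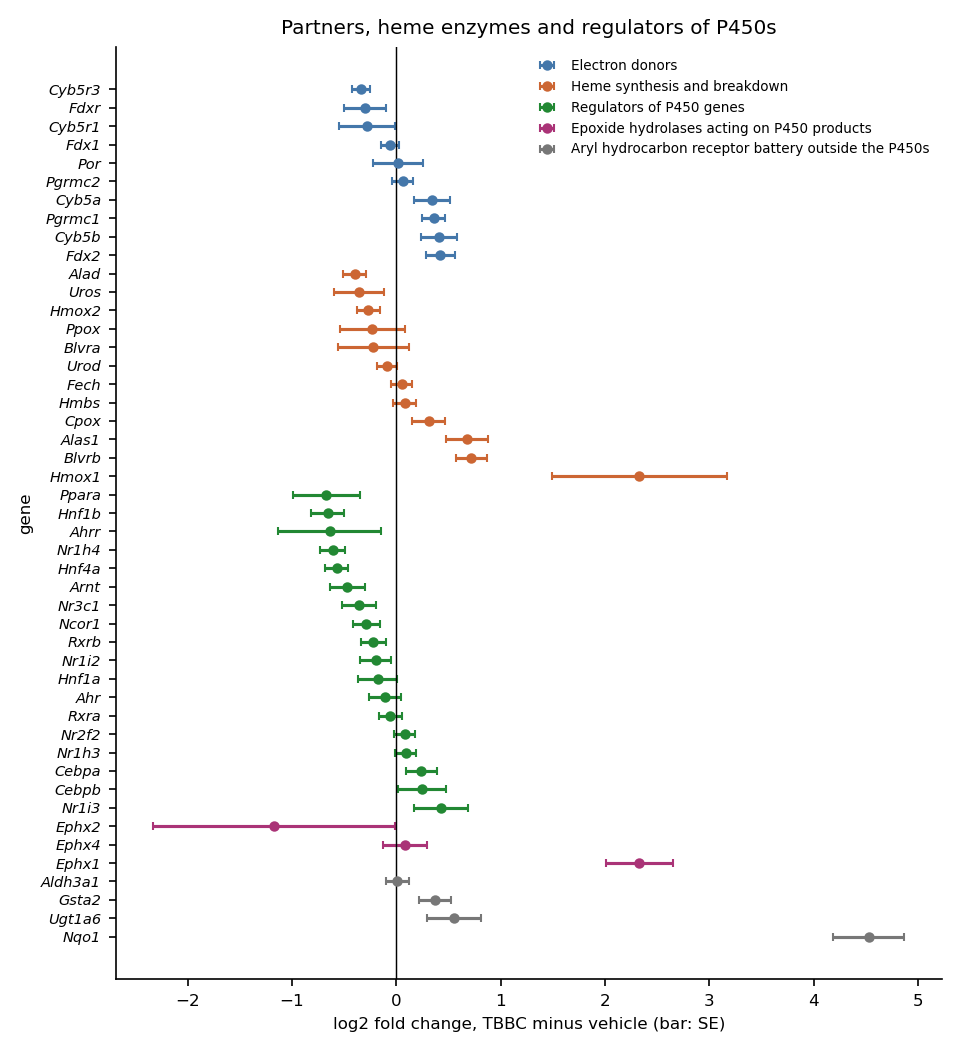
Log2 fold change, TBBC minus vehicle, with its standard error (bar) for the 47 tested partner, heme, regulator, hydrolase and receptor-battery genes, coloured by list. Nqo1, at 4.53, is the gene past the threshold, followed by Ephx1 and Hmox1 at 2.33, and Ephx2 at -1.17 has the widest bar.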

How the data were processed

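Total RNA of 6 rat renal cortices was measured on 1-colour (Cy3) Agilent arrays. Spot intensity values in the deposited scanner files come from Agilent's Feature Extraction software, with version 10.7.1.1 per the file headers and 10.7 in the submitters' processing notes. That program subtracts background within an array and does not scale arrays to each other. The deposited value table holds a linear ratio per probe. Compared with the scanner values, its divisor was the array's 75th percentile to within 0.232%, and its column medians were 0.111, 0.112 and 0.113 for vehicle and 0.113, 0.107 and 0.114 for TBBC. Neither labels nor headers state how the authors tested the groups.

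After 1439 control spots were dropped from 62976, accessions without versions were looked up in RefSeq (GRCr8), which named 28206 of 61537 probes. Another build stands in the file headers, so no probe coordinates are given. Each signal was scaled by the 75th percentile of its array (control spots excluded) before taking log2. On each array, 0 to 9 flagged spots were dropped, and 0 spots were saturated. To be tested, a probe had to lie well above background on all unflagged arrays of a group and have at least 2 unflagged arrays in each. The brightest such probe stood for its gene, which left 32956 transcripts, 12298 of them named genes. "On no array" means that no probe of the gene was well above background on any array.

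The 2 groups entered a single fit in limma 3.58.1 (R 4.3.3; lmFit and eBayes, two-sided). P-values were adjusted by Benjamini-Hochberg across the whole array, with a threshold of 0.05. The number of arrays limits the precision. Shared upstream stretches are the highest-scoring ungapped runs (1 for a match, -2 for a mismatch) outside the annotated gene. Named with all values were the 10 highest and 10 lowest tested genes, genes with only a bound and a fixed set; Cyp2d2, Cyp2t1, Alad, Hmox2, Blvrb and some others were added after their values were seen. The members and lists were chosen with earlier results of these data known. Alternatives covered scaling, normexp (offset 50, on the median signal), the value table, filters, probe averaging, flags, eBayes trend and robust, array weights, slide (fixed, random with statmod 1.5.0, or shared slide alone), a replicate block and each array left out. The procedure was tested on simulated data.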

Additional observations from a re-analysis of the deposited data

Results flagged for a closer look

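These probes were outside the group comparison because they were not well above background on every array of a group, and they were detected in TBBC rats but in no vehicle rat. The first Cyp1b1 probe reached -4.35 on the log2 scale in TBBC 3, against -8.10 to -7.07 in vehicle rats. The second Cyp1b1 probe reached -3.61 in TBBC 3 and was also detected in TBBC 2, at -5.56, against -7.79 to -5.99 in vehicle rats. The second Cyp4x1 probe reached -4.53 in TBBC 1 and was not detected on the other 5 arrays, where it read -8.04 to -7.63. None of these differences was tested.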

How the results depend on the processing

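There were 3 rats per group, a TBBC spread larger than that of vehicle and 21 of 102 probes on no array. Small differences and dim genes could therefore not be resolved. Slide and group are partly confounded, as the slide of TBBC 2 and 3 held no vehicle rat. No probe sequence was used to check shared signal between like genes. Over 22 alternatives, 785 of 827 P450 gene values kept their sign and side of the threshold, 1 became a call and 41 changed sign, all in genes within 0.56 of 0. No P450 gene was called except without TBBC 1, where 1 was, so the count over the arrays left out ran from 0 to 1. The median of -0.32 was -0.10 with normexp, -0.08 with slide as a fixed term and -0.07 on the shared slide; with single arrays left out it ran from -0.39 to -0.02, the latter without TBBC 2. The partner count of 1 was 2 with quantile, median or detected-probe scaling, with detection on all arrays, with averaged or separate probes, with array weights and with slide as a fixed term, each adding Ephx1. It was 5 with normexp or eBayes trend and robust, 3 on the shared slide, and 0 without any one vehicle array, with 0 to 2 over all arrays left out. The labels do not say that rats of the same number were paired. Same-numbered deviations correlated at -0.09, 0.03 and -0.07 and the others at -0.13 to 0.21. With 3 rats per group this cannot decide whether they were paired. With the replicate block 0 partners and 0 transcripts at all were called in limma, and the lowest P450 adjusted p was 0.190.

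Signs changed as follows. With slide as a fixed term, log2 fold changes were 0.03 (Cyp11b3), -0.10 (Cyp4f1), 0.00 (Cyp2b15), 0.32 (Cyp4f18), 0.41 (Cyp2j4), -0.09 (Cyp4f40), 0.45 (Cyp2f4) and 0.25 (Cyp4f17). On the shared slide they were 0.03 (Cyp11b3), -0.10 (Cyp4f1), 0.00 (Cyp2b15), 0.32 (Cyp4f18), 0.60 (Cyp2j4), -0.09 (Cyp4f40), 0.45 (Cyp2f4) and 0.25 (Cyp4f17). With slide as a random block Cyp4f40 was -0.01 and Cyp4f17 0.01. Quantile scaling gave -0.05 for Cyp4f1, normexp -0.04 for Cyp4f1, 0.03 for Cyp4f18 and 0.04 for Cyp4f17, and averaging of probes -0.05 for Cyp2s1 and 0.21 for Cyp4f17. With single arrays left out the values ran from -0.43 to 0.35 for Cyp11b3, -1.10 to 0.34 for Cyp11a1, -0.06 to 0.09 for Cyp4f1, -0.02 to 0.30 for Cyp20a1, -0.30 to 0.09 for Cyp4f18, -0.02 to 0.18 for Cyp2s1, -0.03 to 0.19 for Cyp17a1, -1.02 to 0.39 for Cyp2j4, -0.06 to 0.06 for Cyp4f40, -0.87 to 0.07 for Cyp2f4 and -0.19 to 0.26 for Cyp4f17. The cause of these changes was not tested.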

Other observations

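The 10 liver genes listed did not share one pattern over the arrays. Fga, Fgb and Fgg, the fibrinogen chains, read 3.63, 3.81 and -2.31 in TBBC 1, 6.45, 6.97 and 2.78 in TBBC 2 and 2.98, 3.12 and -2.54 in TBBC 3. In vehicle 1 to 3, Fga read 1.16, 0.82 and 0.09, below every TBBC rat, while Alb and Ttr were highest in vehicle 1. The fibrinogen chains thus had their highest rat in TBBC 2, and none of the 3 passed the adjusted threshold in limma, with adjusted p-values of 0.113 (Fga), 0.104 (Fgb) and 0.202 (Fgg). Like Cyp2c7, Cyp2c13 and Cyp3a2, Serpina1, a plasma protease inhibitor, was highest in vehicle 1, at -1.63 against -5.45 and -4.15 in the other vehicle rats and -4.61 to -4.48 in TBBC rats.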
